A study of Gallus gallus with 18 samples.

Results

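Crystallins are the structural proteins that fill the lens, and several of them are also made outside it. The 7 crystallin genes described here are CRYAA, CRYAB, ASL1, CRYBB2, CRYBA4, CRYGN and CRYM, taken by gene symbol from a table of 18336 genes, and each symbol matched 1 row. The table holds normalized gene counts from bulk mRNA sequencing of chicken retinal pigment epithelium (RPE), the pigmented sheet behind the neural retina. The RPE was taken at embryonic day 4 (E4, Hamburger Hamilton stage 24) or day 5 (E5, stage 26), since the study compared RPE that can still be reprogrammed to neural retina with RPE that no longer can.

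The groups were E5 6hPR + FGF2, E5 6hPR, E5 developing, E4 6hPR + FGF2, E4 6hPR and E4 developing, with 3 libraries in each. 6hPR RPE was collected 6 h after the neural retina had been removed by surgery (retinectomy), and 6hPR + FGF2 RPE came from eyes that also received heparin beads carrying the growth factor FGF2 at surgery. Developing RPE came from eyes without surgery. The labels name no group with beads that lacked FGF2, so effects of the bead and of FGF2 cannot be told apart. Each library pooled 3 RPE sheets, so a p value measures the spread between pools. The GEO labels give White Leghorn eggs from Michigan State University and the study's methods give SPAFAS eggs from Charles River for sequencing. During dissection the anterior chambers were discarded, the neural retina was peeled off and mesenchyme was debrided. In bulk RNA, fewer cells of a type and less RNA per cell cannot be told apart.

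The α-crystallins CRYAA and CRYAB are small heat shock proteins that keep other proteins from aggregating. CRYAB is made in many tissues and is induced by stress, whereas CRYAA is made mainly in the lens. The β- and γ-crystallins, here CRYBB2, CRYBA4 and CRYGN, share a fold built from Greek key motifs. δ-crystallin is the main protein of the embryonic bird lens. It arose from argininosuccinate lyase, an enzyme of arginine synthesis, and ASL1 is the δ-crystallin gene expressed at the high level in chicken lens. CRYM (μ-crystallin) is a lens crystallin in some marsupials and binds thyroid hormone in the cytosol of mammalian cells.

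Reads on genes ran to 50.7 M in the shallowest library and 73.0 M in the deepest. All 12 RPE marker genes on the list used (such as TYR, PMEL, MITF and RPE65) were detected, and their summed normalized count was 945843 to 1538100 in the E5 libraries and 453573 to 772352 in the E4 libraries. The second library of E5 developing RPE stood apart, with the highest value of 18 libraries for 10 of 13 retinal neuron genes. Results of the crystallin genes that rest on it are given with and without it. Results of the other gene lists are given only with it.

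**Figure D1:**
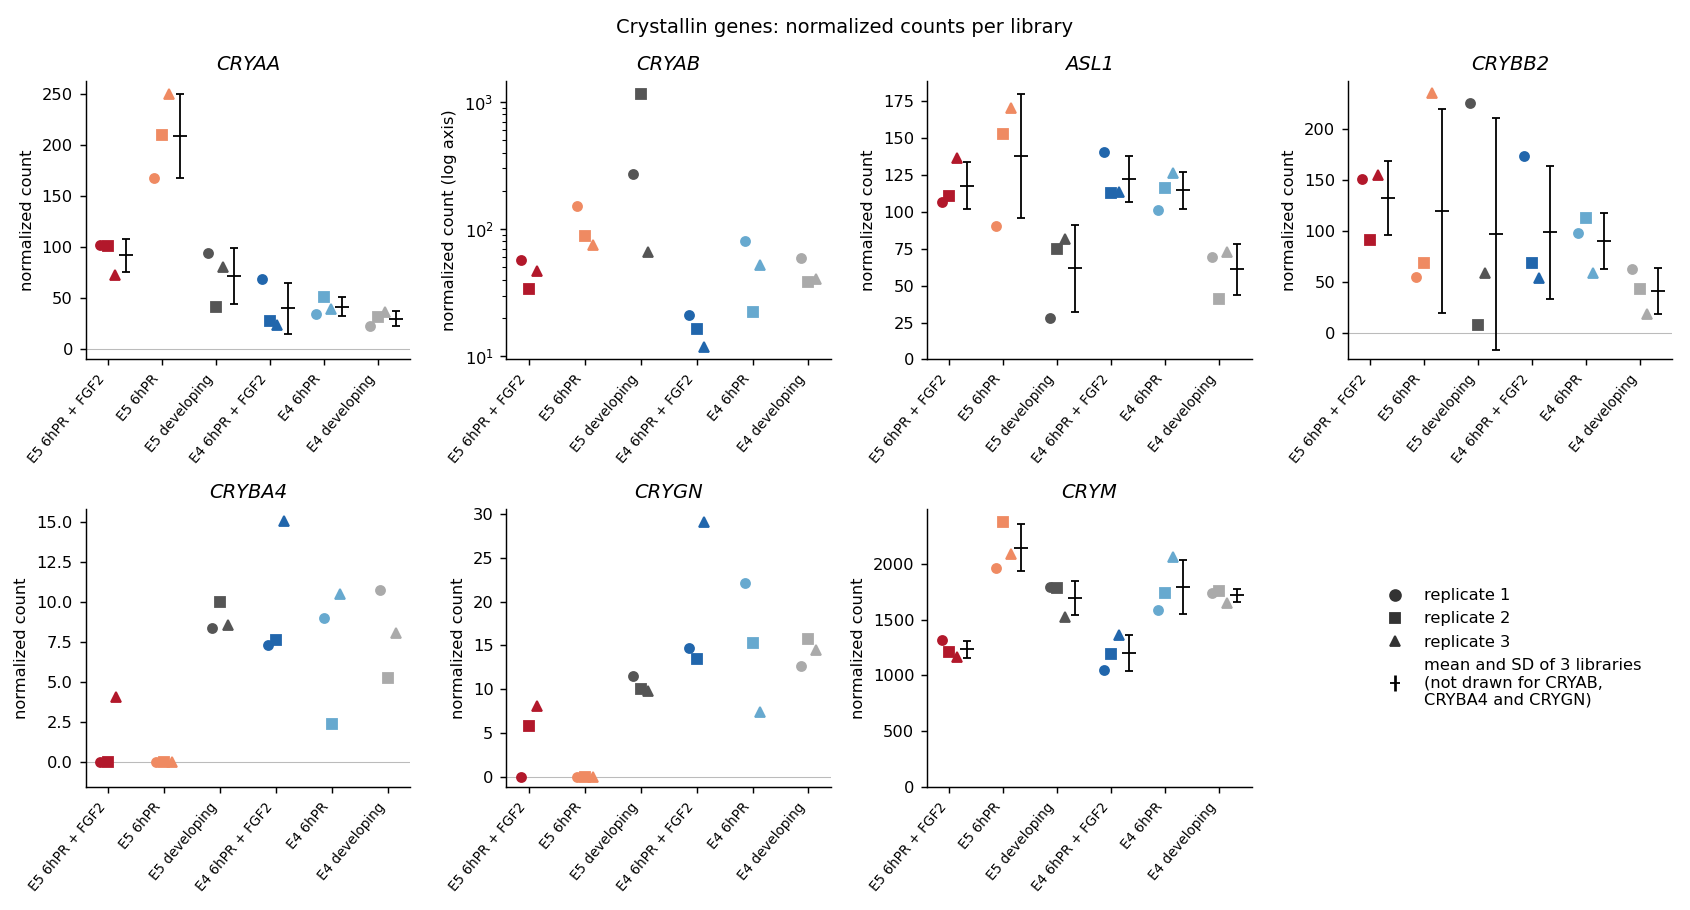
Normalized counts of the 7 crystallin genes (y axis, log axis for CRYAB) in the 6 groups (x axis), with 1 point per library, point shape for the replicate number, and black bars for mean and SD of 3 libraries where drawn. CRYAA was highest in the 3 libraries of E5 6hPR RPE (168 to 250), and CRYGN and CRYBA4 were listed at 0 in all of them.

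Differences were tested with limma over all 18 libraries, with Benjamini-Hochberg adjustment over the 18287 genes tested and a threshold of 0.05 on the adjusted p. Fold changes are on the scale of log2(normalized count + 0.5). All 7 crystallin genes passed the filter on low sums. Between the stages, 3 of the 7 were called in 6hPR + FGF2 RPE, where 29.5% of all genes were called. In 6hPR RPE 3 of 7 were called, against 19.7% of all genes, and in developing RPE 2 of 7, against 22.0%. CRYGN and CRYBA4, which are listed at 0 in some libraries, made 2 of the calls in 6hPR + FGF2 RPE and 2 of those in 6hPR RPE. The median log2 fold change of the 5 genes never at 0, E5 over E4, was 0.57 in 6hPR + FGF2 RPE, 0.26 in 6hPR RPE and 0.33 in developing RPE. Over all 7 genes as fitted it was 0.05, 0.22 and 0.20. The 2 genes left out were at 0 only in E5 RPE after retinectomy, so the choice of 5 genes depends on the values compared. Over all genes the median lay between -0.02 and 0.03 in each of the 12 comparisons.

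After surgery the count of crystallin genes called was larger at E5. At E5, 4 of 7 were called in 6hPR + FGF2 RPE against developing RPE (28.8% of all genes), and 4 of 7 in 6hPR RPE against developing RPE (19.0%). Of these, 3 and 2 were among the 5 genes never at 0. At E4, 1 of 7 was called in 6hPR + FGF2 RPE against developing RPE (20.0%). None was called in E4 6hPR RPE against E4 developing RPE with limma (13.6% of all genes), where 1 gene had an unadjusted p under 0.05 and edgeR and DESeq2 called 0. Adding FGF2 to retinectomy was followed by 3 calls at E5 (26.2% of all genes), 1 of them CRYGN, and 1 call at E4 (8.27%). The medians of the 5 genes never at 0 were 0.42 and 1.06 for E5 6hPR + FGF2 and E5 6hPR against E5 developing RPE, 0.27 and 0.48 for E4 6hPR + FGF2 and E4 6hPR against E4 developing RPE, and -0.79 at E5 and -0.20 at E4 for 6hPR + FGF2 against 6hPR. Over all 7 genes as fitted, the median for E5 6hPR + FGF2 against E5 developing RPE was -0.46, so its sign depended on the 2 genes with zeros. The median of all 7 was 0.34 for E5 6hPR against E5 developing RPE. Against E4 developing RPE it was 0.28 for E4 6hPR + FGF2 and 0.05 for E4 6hPR. For 6hPR + FGF2 against 6hPR it was -0.18 at E5 and -0.01 at E4.

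Whether the response differed between the stages was tested as an interaction, and limma called 0 of 7 crystallin genes in each of the 3 interactions. Over all genes 2.99% were called for 6hPR against developing RPE, 5.56% for 6hPR + FGF2 against developing RPE and 2.54% for 6hPR + FGF2 against 6hPR. At an unadjusted p under 0.05 there were 2, 1 and 0 crystallin genes in these 3 tests, edgeR called 1, 0 and 0, and DESeq2 called 2, 0 and 0. The larger number of calls at E5 was therefore not shown to be a difference between the stages.

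**Figure D2:**
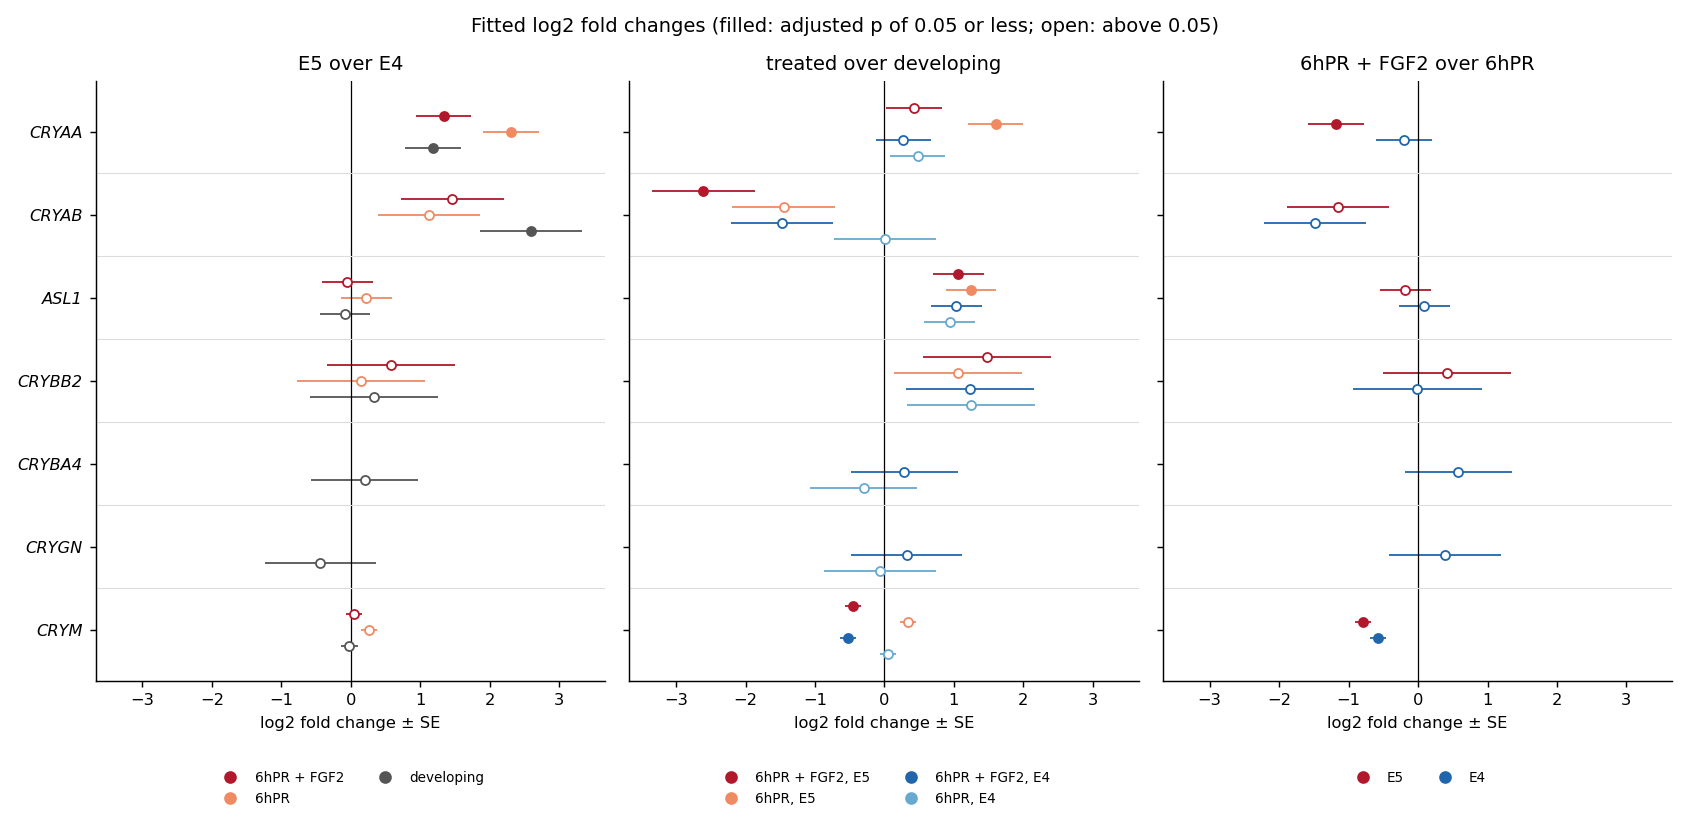
Fitted log2 fold changes with their SE (x axis) for the 7 crystallin genes (y axis) in the stage comparisons, the comparisons with developing RPE and the comparisons of 6hPR + FGF2 with 6hPR. Filled points passed the threshold, and CRYGN and CRYBA4 are not drawn where a group holds a library at 0. CRYAA lies right of 0 in the 3 stage comparisons, and CRYM lies left of 0 in the 4 comparisons that have FGF2 on top.

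CRYAA was higher at E5 than at E4 in every condition, and its highest level was in E5 6hPR RPE. Its normalized count was 102, 101 and 73.2 in E5 6hPR + FGF2 RPE, 168, 210 and 250.3 in E5 6hPR RPE, and 94.1, 41.0 and 80.6 in E5 developing RPE. In the E4 groups it was 69.3, 27.8 and 23.7 with FGF2, 34.1, 51.7 and 39.96 at 6hPR, and 22.5, 31.5 and 36.3 in developing RPE. All 3 E5 libraries lay above all 3 E4 libraries within each condition, and the 3 libraries of E5 6hPR RPE lay above the other 15.

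In 6hPR RPE CRYAA was 2.31 ± 0.40 higher at E5 on the log2 scale (SE of the fit, limma adjusted p = 0.00088). It kept its call under each of 12 other settings and without any single library, with an adjusted p of at most 0.0059. In 6hPR + FGF2 RPE it was 1.34 ± 0.40 (adjusted p = 0.021), and in developing RPE 1.19 ± 0.40 (adjusted p = 0.045). The last 2 calls were not stable. In 6hPR + FGF2 RPE the call was lost without library 2 or 3 at E4 or library 1 or 2 at E5 (log2 fold changes from 1.04 to 1.81 over the libraries left out, adjusted p up to 0.086). In developing RPE it was lost without any of the E4 libraries or without library 1 or 3 at E5 (0.95 to 1.54, adjusted p up to 0.16), and in a fit of the 2 groups alone (adjusted p = 0.11).

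Retinectomy at E5 was followed by a rise of CRYAA of 1.60 ± 0.40 on the log2 scale over developing RPE (adjusted p = 0.01). The mean was 209 ± 41.1 in E5 6hPR RPE and 71.9 ± 27.6 in E5 developing RPE (SD, n = 3 each). With FGF2 the mean was 92.1 ± 16.4 (SD, n = 3), which fell by 1.18 ± 0.40 on the log2 scale below E5 6hPR RPE (adjusted p = 0.041) and was not called against E5 developing RPE (0.42 ± 0.40, adjusted p = 0.47). Without the second library of E5 developing RPE, the rise after retinectomy was 1.24 with an adjusted p of 0.053. The fall with FGF2 lost its call without library 2 or 3 of E5 6hPR RPE or any library of E5 6hPR + FGF2 RPE (-1.33 to -1.02, adjusted p up to 0.14).

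At E4 the same steps were followed by no called change of CRYAA. The log2 fold change was 0.27 ± 0.40 for 6hPR + FGF2 against developing RPE (adjusted p = 0.69), 0.48 ± 0.40 for 6hPR against developing RPE (adjusted p = 0.51) and -0.20 ± 0.40 for 6hPR + FGF2 against 6hPR (adjusted p = 0.82). The interaction for 6hPR against developing RPE was 1.12 ± 0.57 (adjusted p = 0.34), so the rise at E5 was not shown to differ from the change at E4.

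CRYAB, the α-crystallin made in many tissues, ranged from 11.9 to 1162 normalized counts, and 1 library set the upper end. Its normalized count was 57.1, 33.7 and 46.8 in E5 6hPR + FGF2 RPE, 153, 87.5 and 75.2 in E5 6hPR RPE, and 271, 1162 and 66.0 in E5 developing RPE. At E4 it was 21.0, 16.3 and 11.9 with FGF2, 80.3, 22.3 and 52.6 at 6hPR, and 59.6, 38.5 and 40.3 in developing RPE. The value of 1162 came from the second library of E5 developing RPE, and the third library of that group, at 66.0, lay close to the E4 libraries.

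CRYAB was called in 2 comparisons. It was higher in E5 developing RPE than in E4 developing RPE by 2.59 ± 0.74 on the log2 scale (adjusted p = 0.019), and lower in E5 6hPR + FGF2 RPE than in E5 developing RPE by -2.60 ± 0.74 (adjusted p = 0.015), with no overlap of the libraries in either. Without the second E5 developing library these became 1.55 (adjusted p = 0.079) and -1.57 (adjusted p = 0.07). The stage call was also lost without E4 developing library 2 (2.48, adjusted p = 0.062) or 3 (2.51, adjusted p = 0.057), and the FGF2 call without library 2 of E5 6hPR + FGF2 RPE (-2.40, adjusted p = 0.056). Fits of the 2 groups alone gave adjusted p values of 0.10 and 0.094.

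In FGF2-treated RPE all 3 CRYAB values lay below those of 6hPR RPE at the same stage, and below those of developing RPE. The differences that did not pass the threshold were -1.15 ± 0.74 against 6hPR at E5 (adjusted p = 0.27), -1.49 ± 0.74 against 6hPR at E4 (adjusted p = 0.25) and -1.47 ± 0.74 against developing RPE at E4 (adjusted p = 0.19). In 6hPR RPE at E5 it was -1.45 ± 0.74 against developing RPE (adjusted p = 0.19). This value rested on single E5 developing libraries, at -0.41 without the second (adjusted p = 0.71) and -2.48 without the third (adjusted p = 0.0076). It was called with array weights, edgeR and DESeq2.

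Retinal neuron genes moved with CRYAB in E5 developing RPE. The summed count of 13 neuron genes was 9178, 21734 and 8056 in its 3 libraries, against 6576, 6401 and 7777 in the E4 developing libraries, and 5 of the 13 were called higher at E5, where 22.0% of all genes were called in either direction. NEFM, which encodes a neurofilament subunit of axons, had normalized counts of 313, 5106 and 91.6 in the E5 developing libraries. In both CRYAB and NEFM the second library was the highest and the third the lowest. The part of these neuron transcripts in the CRYAB result was not tested.

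**Figure D3:**
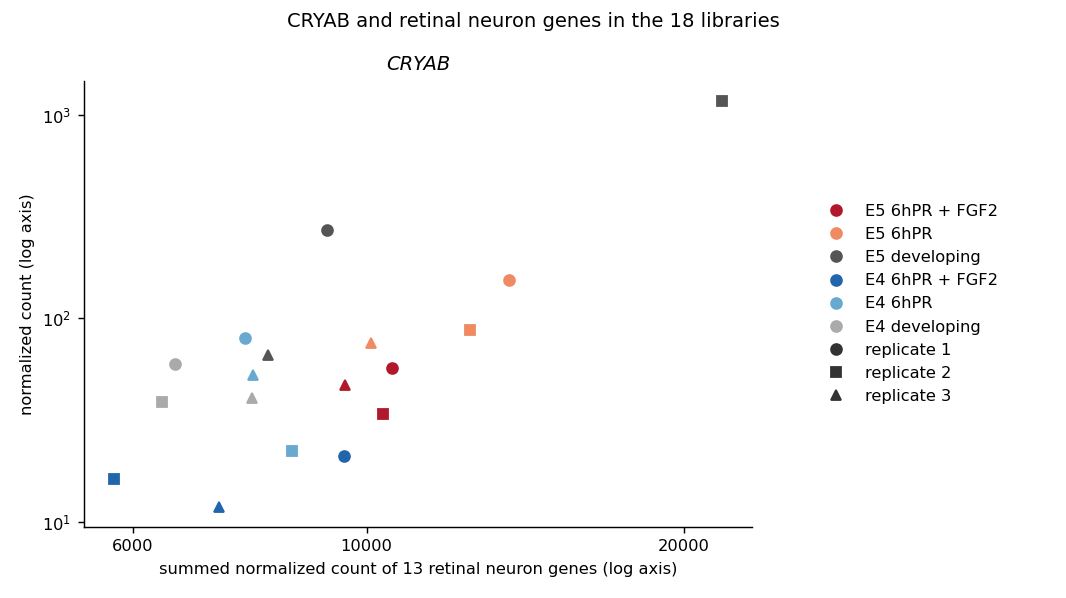
CRYAB normalized count (y axis, log axis) against the summed normalized count of 13 retinal neuron genes (x axis, log axis), with 1 point per library, colour for the group and shape for the replicate number. The second library of E5 developing RPE lies alone at 1162 for CRYAB and 21734 for the neuron sum.

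ASL1, δ-crystallin, lay higher after retinectomy than in developing RPE at both stages, and it was called in no stage comparison (-0.05 ± 0.37 with FGF2, 0.22 ± 0.37 at 6hPR and -0.08 ± 0.37 in developing RPE). Its normalized count was 107, 111 and 136 in E5 6hPR + FGF2 RPE, 90.5, 153 and 170.3 in E5 6hPR RPE, and 28.2, 75.0 and 81.8 in E5 developing RPE. In the E4 groups it was 141, 113 and 113 with FGF2, 101, 116 and 126 at 6hPR, and 69.4, 41.1 and 72.6 in developing RPE. Every one of the 12 libraries taken after retinectomy lay above every one of the 6 developing libraries.

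The rise of ASL1 passed the threshold at E5, by 1.06 ± 0.37 on the log2 scale in 6hPR + FGF2 RPE (adjusted p = 0.04) and by 1.25 ± 0.37 in 6hPR RPE (adjusted p = 0.026), each against developing RPE. At E4 the values were 1.03 ± 0.37 in 6hPR + FGF2 RPE (adjusted p = 0.06) and 0.94 ± 0.37 in 6hPR RPE (adjusted p = 0.11), which did not pass. The stage interactions were 0.03 ± 0.52 (adjusted p = 0.98) and 0.30 ± 0.52 (adjusted p = 0.82). These comparisons share the developing libraries of their stage. With FGF2 against 6hPR the difference was within its error, at -0.18 ± 0.37 at E5 (adjusted p = 0.76) and 0.09 ± 0.37 at E4 (adjusted p = 0.94).

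The ASL1 calls at E5 rested in part on the first E5 developing library, at 28.2. Without it the log2 fold changes were 0.58 in 6hPR + FGF2 RPE (adjusted p = 0.17) and 0.76 in 6hPR RPE (adjusted p = 0.1), and both calls were also lost with quantile normalization and in fits of the 2 groups alone (adjusted p = 0.14 and 0.17). The call for 6hPR + FGF2 RPE was lost without any library of that group and with edgeR, and the call for 6hPR RPE without library 2 (1.15, adjusted p = 0.09) or 3 (1.07, adjusted p = 0.11) of that group. With DESeq2 the E4 difference in 6hPR + FGF2 RPE passed the threshold. The study, which tested with DESeq2, reported ASL1 as up-regulated in E4 6hPR + FGF2 RPE, as in an earlier dataset, with the same pattern at E5.

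ASL2, the neighbouring copy of ASL1 that keeps the lyase activity, is nearly identical in sequence, so reads may be divided between the pair and the ASL1 level is uncertain. ASL2 had 435, 407 and 476 normalized counts in E5 6hPR + FGF2 RPE, 284, 347 and 399 in E5 6hPR RPE and 204, 340.1 and 297 in E5 developing RPE. At E4 it had 479, 496 and 359 with FGF2, 364, 391 and 453 at 6hPR, and 331, 272 and 237 in developing RPE. ASL2 was called higher in 6hPR + FGF2 RPE than in developing RPE at E5 (0.68 ± 0.20, adjusted p = 0.02) and at E4 (0.66 ± 0.20, adjusted p = 0.03).

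CRYBB2, a β-crystallin, was called in none of the 12 comparisons with limma, and its libraries varied widely within groups. Its normalized count was 151, 90.4 and 155 in E5 6hPR + FGF2 RPE, 54.8, 68.5 and 235 in E5 6hPR RPE, and 225, 7.0 and 58.6 in E5 developing RPE. At E4 it was 173, 68.0 and 53.9 with FGF2, 97.4, 113 and 58.9 at 6hPR, and 62.5, 42.9 and 17.8 in developing RPE. The groups overlapped in each of the 9 pairwise comparisons. The lowest value, 7.0, came from the E5 developing library in which CRYAB was highest.

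The widest CRYBB2 difference was 1.47 ± 0.92 for E5 6hPR + FGF2 RPE against E5 developing RPE (adjusted p = 0.26). It was 2.61 without E5 developing library 1 (adjusted p = 0.026) and 0.16 without library 2 (adjusted p = 0.92). Each pairwise difference of CRYBB2 carried an SE of 0.92 on the log2 scale, so a change the size of the ASL1 rise was not detectable at this spread.

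CRYGN and CRYBA4 were measured at a few counts per library and were listed at 0 only in E5 RPE after retinectomy. CRYGN, a crystallin with both β- and γ-like parts, had 0, 5.77 and 8.14 normalized counts in E5 6hPR + FGF2 RPE, 0, 0 and 0 in E5 6hPR RPE, and 11.5, 10 and 9.77 in E5 developing RPE. In the E4 groups it had 14.7, 13.4 and 29.1 with FGF2, 22.1, 15.3 and 7.36 at 6hPR, and 12.7, 15.8 and 14.5 in developing RPE. It was at 0 in 4 of 18 libraries and had at most 27 counts in any.

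CRYBA4, a β-crystallin, had 0, 0 and 4.07 normalized counts in E5 6hPR + FGF2 RPE, 0, 0 and 0 in E5 6hPR RPE, and 8.36, 10 and 8.55 in E5 developing RPE. At E4 it had 7.35, 7.66 and 15.1 with FGF2, 9.03, 2.35 and 10.5 at 6hPR, and 10.7, 5.25 and 8.07 in developing RPE. It was at 0 in 5 of 18 libraries, and the highest library had 14 counts. For both genes every E5 library taken after retinectomy was below every E5 developing library.

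A listed 0 is not the low end of a smooth range in this table. Among 1366 genes that averaged 5 to 15 counts, 22.2% of values were 0 and 0.525% were 1 count, whereas 5.99% were 7 counts. These genes were chosen by their mean, which by itself makes values of 1 less common than values near the mean. The shares do not tell what level a 0 stands for. No fold is therefore given for CRYGN or CRYBA4 where a group holds a library at 0. How these zeros arose was not tested.

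**Figure D4:**
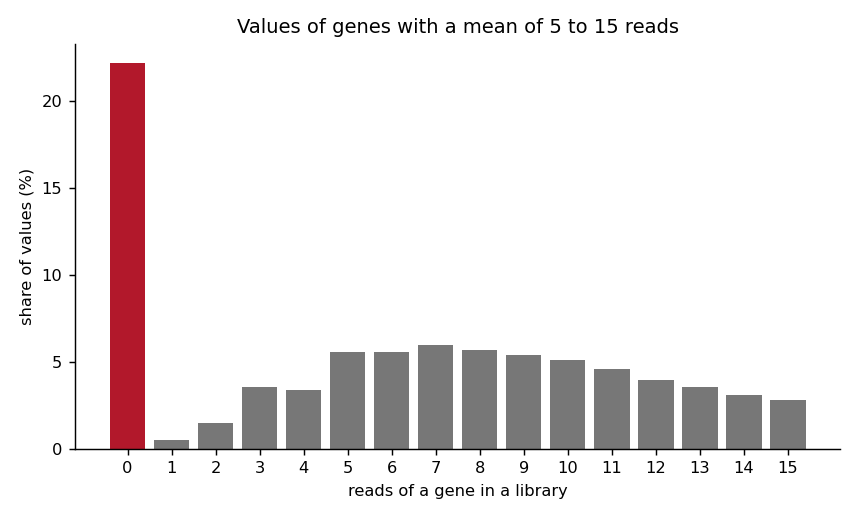
Share of values (y axis, percent) at each whole count from 0 to 15 (x axis) for the 1366 genes with a mean of 5 to 15 counts over the 18 libraries. The bar at 0 holds 22.2% of values and the bar at 1 holds 0.525%.

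With the zeros taken as deposited, the listed values of CRYGN were called lower in E5 6hPR RPE than in E4 6hPR RPE (limma adjusted p = 0.00065) and than in E5 developing RPE (adjusted p = 0.0011), and those of CRYBA4 in the same comparisons (adjusted p = 0.0029 and 0.0011). These p values describe the table as listed, and they do not show that the transcripts were fewer. The 4 calls held under each other setting that tested the gene and without any single library, but every setting uses the same zeros.

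In FGF2-treated RPE the listed values were called lower at E5 than at E4 for CRYGN (adjusted p = 0.023) and for CRYBA4 (adjusted p = 0.0058). The CRYGN call was lost without library 3 of E4 6hPR + FGF2 RPE (adjusted p = 0.08), without library 1 of E5 6hPR + FGF2 RPE, the one at 0 (adjusted p = 0.084), in a fit of the 2 groups alone (adjusted p = 0.10) and with edgeR (adjusted p = 0.099). The CRYBA4 call was lost with edgeR (adjusted p = 0.072). Against E5 developing RPE, CRYBA4 was called in E5 6hPR + FGF2 RPE (adjusted p = 0.0057), but not with edgeR (adjusted p = 0.09) or in a fit of the 2 groups alone (adjusted p = 0.08). CRYGN was not called there (adjusted p = 0.098), though it was without library 3 of E5 6hPR + FGF2 RPE (adjusted p = 0.03). Between E5 6hPR + FGF2 and E5 6hPR RPE, CRYGN was called (adjusted p = 0.028), but the groups overlapped at 0. That call was lost with a pseudocount of 5 (adjusted p = 0.092), with array weights (adjusted p = 0.059), in a fit of the 2 groups alone (adjusted p = 0.20) and without any library of the pair of groups other than the one at 0 with FGF2 (adjusted p up to 0.13).

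In developing RPE, where no library was at 0, neither gene was called between the stages, at -0.44 ± 0.80 for CRYGN (adjusted p = 0.76) and 0.20 ± 0.77 for CRYBA4 (adjusted p = 0.91). The interactions of stage with 6hPR against developing RPE, which rest on the zeros, lay just above the threshold for CRYGN (adjusted p = 0.051) and CRYBA4 (adjusted p = 0.063). DESeq2 on recovered counts called both, and edgeR called 1 of them, CRYGN.

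CRYM, the thyroid hormone binding protein, was lower wherever FGF2 had been given. Its normalized count was 1321, 1213 and 1169.6 in E5 6hPR + FGF2 RPE, 1962, 2374 and 2091 in E5 6hPR RPE, and 1789.8, 1780.4 and 1522 in E5 developing RPE. In the E4 groups it was 1048, 1189.8 and 1366 with FGF2, 1582, 1735 and 2060.1 at 6hPR, and 1743, 1758 and 1649 in developing RPE. All 6 FGF2 libraries lay below all 12 others.

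Against 6hPR RPE, CRYM fell with FGF2 by 0.79 ± 0.12 on the log2 scale at E5 (adjusted p = 0.00024) and by 0.58 ± 0.12 at E4 (adjusted p = 0.0069). Against developing RPE it fell by 0.46 ± 0.12 at E5 (adjusted p = 0.0083) and by 0.52 ± 0.12 at E4 (adjusted p = 0.005). The means were 1234 ± 77.9 and 2142 ± 211 for E5 6hPR + FGF2 and E5 6hPR RPE, and 1201 ± 159 and 1792 ± 244 for E4 6hPR + FGF2 and E4 6hPR RPE (SD, n = 3 each). Each call held without any single library, and 1, the E4 difference from 6hPR RPE, was lost in a fit of the 2 groups alone (adjusted p = 0.078). The 4 comparisons share their FGF2 libraries.

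Retinectomy without FGF2 was followed by no called change of CRYM with limma. The log2 fold change against developing RPE was 0.34 ± 0.12 at E5 (adjusted p = 0.058), with no overlap of the libraries, and 0.05 ± 0.12 at E4 (adjusted p = 0.84). Without library 1 of E5 6hPR RPE the E5 value was 0.40 (adjusted p = 0.049). DESeq2 on recovered counts called the E5 rise (adjusted p = 0.029). Between the stages CRYM was not called, at 0.05 ± 0.12 with FGF2 (adjusted p = 0.82), 0.26 ± 0.12 at 6hPR (adjusted p = 0.14) and -0.02 ± 0.12 in developing RPE (adjusted p = 0.95). The stage interaction of 6hPR + FGF2 against 6hPR was -0.22 ± 0.17 (adjusted p = 0.44).

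Of 7 genes tested that carry, convert or bind thyroid hormone, the called stage differences were all higher at E5, with 2 of 7 in 6hPR + FGF2 RPE (29.5% of all genes called), 4 of 7 in 6hPR RPE (19.7%) and 3 of 7 in developing RPE (22.0%). SLCO1C1, a transporter of thyroid hormone, was higher at E5 by 1.35 ± 0.40 with FGF2, 2.36 ± 0.40 at 6hPR and 2.25 ± 0.40 in developing RPE (adjusted p = 0.019, 0.00073 and 0.00088). With FGF2 against 6hPR, where CRYM was lower, the 7 genes did not share 1 direction at E5. There 2 were called higher and 1 lower, with 26.2% of all genes called. At E4, 1 was called, and it was higher (8.27% of all genes called). THRA, a thyroid hormone receptor, was higher by 0.30 ± 0.09 at E5 (adjusted p = 0.027) and by 0.39 ± 0.09 at E4 (adjusted p = 0.017).

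Of 12 further crystallin family names, 8 had a row and were tested. In 6hPR + FGF2 RPE against developing RPE, 1 of the 8 was called higher (ASL2) and 2 lower at each stage. In that comparison 20.0% of all genes were called at E4 and 28.8% at E5. CRYBA1, a β-crystallin, was lower in E5 6hPR + FGF2 RPE (25.3, 41.3 and 37.6) than in E5 6hPR RPE (69.6, 66.2 and 88.5), by -1.11 ± 0.34 (adjusted p = 0.025). CRYZ, a quinone reductase that serves as ζ-crystallin in some mammals, was lower with FGF2 than in developing RPE at E5 (-0.36 ± 0.09, adjusted p = 0.0098) and at E4 (-0.30 ± 0.09, adjusted p = 0.032). CRYL1, the λ-crystallin relative, was also lower in these comparisons (-0.46 ± 0.12, adjusted p = 0.01, and -0.52 ± 0.12, adjusted p = 0.0065). CRYL1 was called lower in E4 6hPR RPE than in E4 developing RPE as well, and higher at E5 than at E4 in 6hPR RPE. CRYZ was also called lower in E5 6hPR + FGF2 RPE than in E5 6hPR RPE.

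Among the lens-type genes of this family, CRYGS, a γ-crystallin, was listed at 0 in 15 of 18 libraries and CRYBB1, a β-crystallin, in 3 of 18. Neither was called in any comparison with limma. In E5 6hPR RPE against E5 developing RPE, CRYAA and ASL1 were called higher, and CRYGN and CRYBA4 were listed at 0 in E5 6hPR RPE. CRYBB2, CRYBA1 (mean 74.8 against 59.4) and CRYBB1 were not called, and CRYBB1 was listed at 0 in 1 library of E5 6hPR RPE. CRYGS was listed at 0 in all 3 libraries of both groups, so it could not be called there.

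Transcription factors that bind crystallin promoters in lens were followed from a list of 15 names, of which 13 were tested. Between the stages 4 of 13 were called in 6hPR + FGF2 RPE (3 higher at E5), 3 in 6hPR RPE (2 higher) and 7 in developing RPE (4 higher), against 29.5%, 19.7% and 22.0% of all genes in these comparisons. MAF was higher at E5 in all 3 conditions, by 0.96 ± 0.10 with FGF2 (adjusted p = 2.2e-05), 0.82 ± 0.10 at 6hPR (adjusted p = 8.2e-05) and 1.33 ± 0.10 in developing RPE (adjusted p = 4.9e-06), as CRYAA was. TFAP2A, which acts in lens development in mouse, was lower at E5 in all 3 (-1.28 ± 0.22, -1.0 ± 0.22 and -0.82 ± 0.22, adjusted p = 0.00075, 0.0047 and 0.014).

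After surgery, MAFA and PAX6 were higher in E5 RPE. MAFA, a large MAF factor of chicken lens, was higher than in developing RPE by 2.82 ± 0.58 in E5 6hPR + FGF2 RPE (adjusted p = 0.0017), by 2.02 ± 0.58 in E5 6hPR RPE (adjusted p = 0.023) and by 2.90 ± 0.58 in E4 6hPR + FGF2 RPE (adjusted p = 0.0021). PAX6, a regulator of eye and lens formation, was higher by 0.85 ± 0.21 in E5 6hPR + FGF2 RPE (adjusted p = 0.0065) and by 0.77 ± 0.21 in E5 6hPR RPE (adjusted p = 0.017). PROX1, which is needed for lens fibre elongation in mouse, was higher with FGF2 than at 6hPR at E5 (1.87 ± 0.43, adjusted p = 0.0055), where CRYAA was lower.

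Whether lens cells reached the RPE samples bears on CRYAA, ASL1 and the β-crystallins, so lens fibre genes that are not crystallins were measured beside them. BFSP1, BFSP2, MIP and GRIFIN were tested, and LIM2 and LENEP were not analysed here. The summed count of the 4 was 132 to 158 in E5 6hPR + FGF2 RPE, 174 to 352 in E5 6hPR RPE, 183 to 252 in E5 developing RPE, 98.2 to 169 in E4 6hPR + FGF2 RPE, 138 to 191 in E4 6hPR RPE and 128 to 282 in E4 developing RPE. BFSP1, a beaded filament protein of lens fibres, was at 0 in 7 of 18 libraries, GRIFIN in 4, and BFSP2 and MIP in 0.

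MIP, the main membrane protein of lens fibres, was called higher in E5 6hPR RPE in 2 comparisons, as CRYAA was. Its normalized count was 119, 219.9 and 182 in E5 6hPR RPE, against 42.9, 40.01 and 106 in E5 developing RPE (1.56 ± 0.38, adjusted p = 0.0093) and 60.2, 99.9 and 66.3 in E4 6hPR RPE (1.19 ± 0.38, adjusted p = 0.04). The other 3 fibre genes were not called in these 2 comparisons. Against E5 developing RPE, all 3 had lower means in E5 6hPR RPE (BFSP2 100 against 126, BFSP1 6.77 against 9.52, GRIFIN 6.33 against 20.1). The GRIFIN mean of 20.1 rested on the second library of E5 developing RPE, at 54.0, with 0 and 6.27 in the other libraries. BFSP1 and GRIFIN were each listed at 0 in 1 library of E5 6hPR RPE, so their means are uncertain. Against E4 6hPR RPE, BFSP2 and BFSP1 had higher means and GRIFIN a lower one. With FGF2 against 6hPR at E5, where CRYAA was called lower, none of the 4 was called. There MIP (84.8 against 174), BFSP2 (42.1 against 100) and BFSP1 (1.60 against 6.77) had lower means with FGF2. GRIFIN had a higher one (17.8 against 6.33). In developing and in FGF2-treated RPE none of the 4 was called between the stages. CRYAA was called in both, but each of these calls was lost without some single libraries. A wider list held 11 tested lens genes that are not crystallins, the 4 fibre genes among them. Of these 11, 1 was called higher at E5 in developing RPE (SOX1, 22.0% of all genes called). In 6hPR + FGF2 RPE 2 were called higher (LGSN and PROX1, 29.5% of all genes called), and in 6hPR RPE 1 (MIP, 19.7%). Against E5 developing RPE, 2 of the 11 were called higher in E5 6hPR RPE (MIP and TDRD7, 19.0% of all genes called). In E5 6hPR + FGF2 RPE against E5 developing RPE 2 were called higher (LGSN and PROX1) and 1 lower (BFSP2), with 28.8% of all genes called. With FGF2 against 6hPR at E5, 1 was called higher (PROX1, 26.2%). SOX1 was highest in the second library of E5 developing RPE (374), and LGSN was at 0 in 15 of 18 libraries. Whether CRYAA and the fibre genes differed in these changes was not tested. Lens carry-over as a part of the CRYAA and ASL1 results was not tested.

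**Figure D5:**
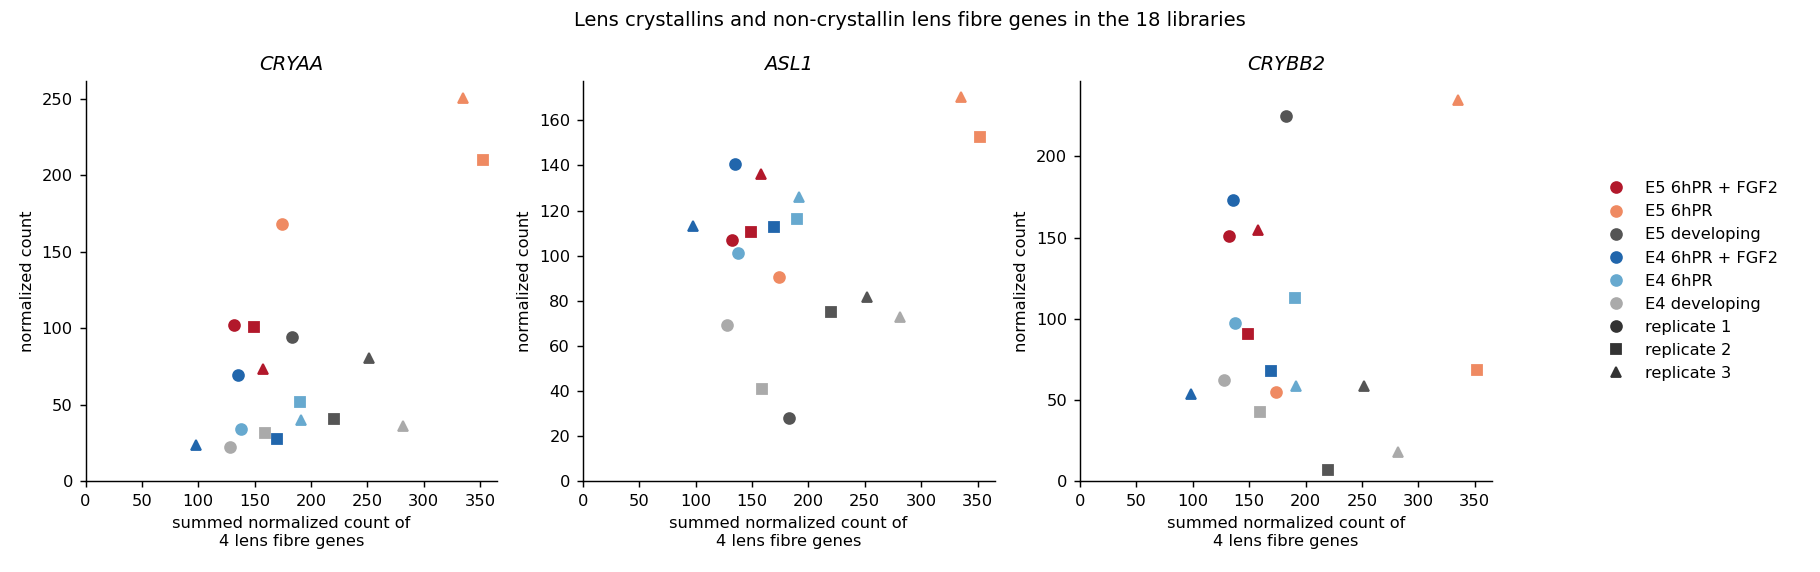
Normalized counts of CRYAA, ASL1 and CRYBB2 (y axes) against the summed normalized count of 4 lens fibre genes that are not crystallins (x axes), with 1 point per library, colour for the group and shape for the replicate number. Libraries 2 and 3 of E5 6hPR RPE have the highest fibre gene sums (352 and 335) and the highest CRYAA (210 and 250.3). Library 1 of that group has a fibre gene sum of 174 with CRYAA at 168. Library 3 of E4 developing RPE has a fibre gene sum of 282 with CRYAA at 36.3.

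The 3 genes nearest to each crystallin gene in pattern were found by the mean absolute difference of row-scaled log2 values over the 18 libraries, among 11468 named genes with a mean of 10 or more. Row scaling compares the shape of a pattern and sets the size of its changes aside. For CRYAA they were ABHD12, DNAJB12 and NDRG4, with differences of 0.162, 0.248 and 0.264 SD, against a median of 1.12 SD over all candidates. ABHD12 ranged from 5442 to 8901 normalized counts, and CRYAA from 22.5 to 250. For CRYAB the nearest was TOX3 (0.313 SD), followed by NCAM1, the neural cell adhesion molecule. For ASL1 the nearest was STOML1 (0.370 SD). For CRYBA4 the nearest was CRYGN (0.332 SD), but both genes share listed zeros in E5 RPE after retinectomy, which enter this difference. For CRYM the nearest was ENO4 (0.324 SD). CRYBB2 had the least close neighbour, DNM2 (0.442 SD).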

How the data were processed

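The deposited file holds normalized counts per gene, a signal that the authors made by trimming reads with Cutadapt and Trim Galore, aligning them with STAR to GRCg6a, counting with StringTie on Ensembl genes, dropping genes with less than 10 raw counts and dividing by DESeq2 size factors (tool versions not given in the sources used here). Libraries were made with a stranded kit, and the strand setting of the counting is not given there. Genes that share near-identical sequence may be divided by such counting. Values were whole multiples of 1 step per library in 100% of cases within 1e-06, which gave recovered counts for edgeR 4.0.16 and DESeq2 1.42.0. With these counts, replicate libraries of a group differed beyond sampling noise (mean chi-square per gene of 8.27 or more).

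The main test was limma 3.58.1 (R 4.3.3) with a variance trend on log2(normalized count + 0.5), fitted over all 18 libraries with 6 group means. Genes summing to under 10 were left out, which kept 18287. P values were adjusted by Benjamini-Hochberg and called at 0.05 or less, and the 12 comparisons are those of stage, treatment and their interaction. SE is the moderated standard error and SD the spread of 3 libraries. Alternatives changed the pseudocount, filter, scaling, variance model, replicate block, groups fitted and tool, and left out each library.

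The 7 genes and the gene lists were chosen with earlier results of these data known. Genes named besides were, by rule, list members that passed the test or were at 0, and the 3 genes nearest in pattern. NEFM was named after its values were seen. No transcript lengths were used, so levels of different genes are not compared. Some genes of the lists, and 1 of those nearest in pattern, are not reported here.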

Additional observations from a re-analysis of the deposited data

Results flagged for a closer look

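None of the 7 crystallin genes passed the threshold in the 3 tests of stage by treatment with limma. From the lists of chaperones (10 tested) and crystallin gene regulators (13 tested), 3 genes did. For 6hPR + FGF2 against developing RPE these were 1 of 10 chaperones and 1 of 13 regulators, with 5.56% of all genes called. For 6hPR + FGF2 against 6hPR it was 1 of 10 chaperones (2.54% of all genes). For 6hPR against developing RPE none was called (2.99%). So few calls are not read as a result about the lists. HSPB8 averaged 84.6 ± 29.1 normalized counts in E5 6hPR + FGF2 RPE against 81.2 ± 12.5 in E5 developing RPE, and 58.5 ± 5.64 in E4 6hPR + FGF2 RPE against 12.5 ± 3.93 in E4 developing RPE (SD, n = 3 each), an interaction of -2.22 ± 0.43 on the log2 scale with a limma adjusted p of 0.0091. SIX3, a homeobox factor of forebrain, retina and lens, averaged 4243 ± 418 in E5 6hPR + FGF2 RPE against 5112 ± 1064 in E5 developing RPE, and 5040 ± 672 in E4 6hPR + FGF2 RPE against 3551 ± 204 in E4 developing RPE, an interaction of -0.75 ± 0.19 (limma adjusted p = 0.029). DNAJB1, a co-chaperone of HSP70 proteins, averaged 2987 ± 248 in E5 6hPR + FGF2 RPE against 2407 ± 111 in E5 6hPR RPE, and 2772 ± 225 in E4 6hPR + FGF2 RPE against 3603 ± 95.4 in E4 6hPR RPE, an interaction of 0.69 ± 0.16 (limma adjusted p = 0.038).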

How the results depend on the processing

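Of 84 gene-by-comparison results, 21 passed the threshold with limma. Of these, 8 also did so without each single library and under each of the 12 other settings that tested the gene. They were CRYAA between the stages at 6hPR, and CRYBA4 and CRYGN between the stages at 6hPR and at E5 in 6hPR over developing RPE. The others were CRYM with FGF2 against developing RPE at both stages and against 6hPR at E5. The 4 calls of CRYBA4 and CRYGN among these rest on listed zeros in every setting. None of the 34 results called under any setting changed sign, whereas there were 80 sign changes among the 50 results never called. A mean filter of 10 left CRYBA4 out.

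The number of crystallin genes called changed as follows, beside some changes within 1.5 times of the main count. For E5 against E4 in developing RPE (2 called) it was 1 with quantile normalization, 1 with array weights, 1 with the replicate block and 0 with only the groups compared. For E5 against E4 in 6hPR + FGF2 RPE (3) it was 1 with edgeR. For 6hPR + FGF2 against developing RPE at E5 (4) it was 1 with only the groups compared and 2 with edgeR, and at E4 (1) it was 2 with a mean of 10 or more, 2 with array weights, 3 with only the groups compared and 2 with DESeq2. For 6hPR against developing RPE at E4 (0) it was 1 with array weights, at E5 (4) it was 3 with a mean of 10 or more, with quantile normalization and with only the groups compared, 5 with array weights and with edgeR and 6 with DESeq2, for 6hPR + FGF2 against 6hPR at E5 (3) it was 2 with a pseudocount of 5, with array weights and with the replicate block, and at E4 (1) it was 0 with only the groups compared. For the interaction of 6hPR against developing RPE (0) it was 1 with array weights, 2 with only the groups compared, 1 with edgeR and 2 with DESeq2, and for that of 6hPR + FGF2 against developing RPE (0) it was 1 with array weights. With a mean of 10 or more, CRYBA4 was left out, and it was called in the main fit for 6hPR against developing RPE at E5. The cause of the other changes was not tested.

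Leaving out 1 library gave 0 to 1 calls for the stages in developing RPE, 3 to 3 at 6hPR and 1 to 3 with FGF2. Against developing RPE, it gave for 6hPR + FGF2 2 to 4 at E5 and 1 to 1 at E4, and for 6hPR 3 to 5 at E5 and 0 to 0 at E4. It gave 1 to 2 for 6hPR + FGF2 against 6hPR at E5 and 1 to 1 at E4. For the interactions it gave 0 to 1 for 6hPR against developing RPE, 0 to 1 for 6hPR + FGF2 against developing RPE and 0 to 0 for 6hPR + FGF2 against 6hPR.

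Replicate numbers are shared between groups, but deviations of same-numbered libraries correlated between -0.228 and 0.295, and in 0 of 9 comparisons did all 3 pairs exceed 0.1, so the numbers were not taken as pairs. With the replicate block, 2 calls were lost, CRYAA in developing RPE between the stages and CRYAA in 6hPR + FGF2 against 6hPR at E5 (adjusted p = 0.058). Over all genes, the count called was 4015 in the stage comparison of developing RPE and 2199 with only the groups compared. It was 3600 at 6hPR and 5984 with array weights. In 6hPR against developing RPE it was 3476 at E5 and 1515 with only the groups compared, and 2483 at E4 and 3875 with array weights. In 6hPR + FGF2 against developing RPE at E5 it was 5261 and 3142 with only the groups compared. In 6hPR + FGF2 against 6hPR it was 4798 at E5 and 8866 with array weights, and 1512 at E4, 573 with only the groups compared and 2708 with array weights. For the interactions it was 546, 281 with only the groups compared and 1294 with DESeq2 (6hPR against developing RPE), 1016 and 1892 with DESeq2 (6hPR + FGF2 against developing RPE), and 465, 165 without the trend and 5206 with array weights (6hPR + FGF2 against 6hPR).

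CRYGN and CRYBA4 averaged 10.5 and 5.89 counts per library. Both were at 0 in E5 6hPR libraries 1 and 3, with 68.4 M and 67.1 M reads on genes. They had 8 and 7 counts in E5 developing library 3, with 51.8 M. Whether the zeros followed depth was not tested. The spread between pools limits CRYBB2 and CRYAB.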

Other observations

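Small heat shock proteins and other chaperones were followed in a list of 12 names, of which 10 were tested. Against developing RPE, 3 of 10 were called higher in E5 6hPR + FGF2 RPE (28.8% of all genes called) and 3 in E5 6hPR RPE (19.0%). At E4, 4 were called higher in 6hPR + FGF2 RPE (20.0%) and 3 in 6hPR RPE (13.6%). The list medians were 0.01 and -0.04 at E5, and 0.11 and 0.45 at E4, in the same order. HSPB1, a small heat shock protein of the α-crystallin family, was higher than in developing RPE by 2.51 ± 0.55 in E5 6hPR + FGF2 RPE, 1.68 ± 0.55 in E5 6hPR RPE, 3.49 ± 0.55 in E4 6hPR + FGF2 RPE and 2.10 ± 0.55 in E4 6hPR RPE (log2 fold change ± SE, limma adjusted p = 0.0029, 0.044, 0.00035 and 0.019). BAG3, a co-chaperone that works with small heat shock proteins, was also higher in all 4, by 1.23 ± 0.11, 0.53 ± 0.11, 0.82 ± 0.11 and 0.46 ± 0.11 (adjusted p = 1.3e-06, 0.0037, 0.00011 and 0.014). CRYAB was called higher after surgery in none of these comparisons.

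In limma, HSPB8, another small heat shock protein, was higher at E5 than at E4 in developing RPE (2.68 ± 0.30, adjusted p = 3.2e-05) and at 6hPR (1.11 ± 0.30, adjusted p = 0.017).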
